A study of Mus musculus with 6 samples.

Results

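The 10 genes described here encode chaperones and folding enzymes of the endoplasmic reticulum (ER), measured by ribosome profiling in wild-type (WT) and Mettl18 knockout (KO) cells of the mouse pancreatic acinar line 266-6. They are Hspa5, Hsp90b1, Calr, Canx, P4hb, Pdia3, Hyou1, Dnajb9, Dnajc3 and Ppib. Each was found by its Ensembl transcript identifier together with its length value, the deposited number that stands beside each count and that equals the protein's residues less 9 for these transcripts. Both conditions held for 10 of 10, out of 142314 rows. Of those rows, 39355 with a count remained after rows with identical counts had been merged. The pairing of identifier and gene name comes from the selection rule, since the deposited tables hold identifiers only. METTL18 methylates a histidine in RPL3, a protein of the large ribosomal subunit, and the study asked what its loss does to translation and protein homeostasis in the pancreas. Both genotypes carried a plasmid for Reg1-FLAG, a tagged secretory protein of acinar cells, and were grown for 48 h before lysis in cycloheximide at 100 μg/ml. There were 3 libraries of each genotype. The labels do not say whether the KO cells were 1 clone or several, or whether the libraries came from separate cultures, so each p-value reflects how far these particular libraries scatter, and that scatter may be technical.

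Secretory proteins enter the ER unfolded, and an acinar cell makes more of them than almost any other cell. HSPA5 (BiP), an Hsp70 chaperone, binds the entering chains, J-domain proteins stimulate its ATP hydrolysis, and HYOU1 exchanges its nucleotide. Calreticulin (CALR) and calnexin (CANX) hold glycoproteins through their sugars and pass them to the disulfide isomerase PDIA3, while P4HB is the classical protein disulfide isomerase. When unfolded proteins accumulate, the unfolded protein response raises the transcription of many of these genes through the factors ATF6 and XBP1.

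Many promoters of this group share a short sequence, shown here because the factors of that response are known to act through it. The ER stress element is 19 bases long: CCAAT, bound by NF-Y, then 9 bases of any kind, then CCACG, bound by ATF6. It was first described in promoters of this gene group, so its presence is background and not a result of these libraries. RefSeq promoters (GRCm38.p6, the assembly called mm10, 250 bases before to 50 after the gene start) were matched by symbol for 9 of the 10 genes, all but Hyou1. Searched on both strands, the element was in 5 of the 9, against 39 of all 32851 promoters of the same length (0.119%). The following lines give it in its own orientation with its flanks, and capitals mark the fixed letters.
Hsp90b1, chr10:86705626-86705668, minus strand: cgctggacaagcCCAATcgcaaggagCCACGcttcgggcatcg
Hsp90b1, chr10:86705521-86705563, plus strand: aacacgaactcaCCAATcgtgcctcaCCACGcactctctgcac
Calr, chr8:84847063-84847105, plus strand: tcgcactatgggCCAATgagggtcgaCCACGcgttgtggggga
Canx, chr11:50325788-50325830, minus strand: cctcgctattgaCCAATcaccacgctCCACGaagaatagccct
Dnajc3, chr14:118937815-118937857, plus strand: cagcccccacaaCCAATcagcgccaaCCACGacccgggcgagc
The Hspa5 promoter is given over all 250 bases before its start, because BiP is the standard target by which the response is read. Capitals are only at the match to all fixed letters, and any site that differs from them stays in lower case.
Hspa5, chr2:34771840-34772089, plus strand: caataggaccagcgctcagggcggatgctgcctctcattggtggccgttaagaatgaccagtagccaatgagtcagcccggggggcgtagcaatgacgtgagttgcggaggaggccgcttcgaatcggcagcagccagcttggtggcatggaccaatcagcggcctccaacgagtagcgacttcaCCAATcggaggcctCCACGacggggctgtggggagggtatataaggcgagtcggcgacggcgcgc
The first base of the element, read along the gene, lay 65 bases before the start in Hspa5, 105 in Dnajc3, 145 in Canx and 162 in Calr. It ran in the direction of the gene in Hspa5, Dnajc3 and Canx, and on the opposite strand in Calr. Hsp90b1 had 2 elements, at 212 bases in the direction of the gene and at 107 bases on the opposite strand. With 1 of the 10 fixed letters allowed to differ, a search added after the data were seen, Pdia3 joined them, against 494 of all promoters (1.5%).
Pdia3, chr2:121413861-121413901, plus strand: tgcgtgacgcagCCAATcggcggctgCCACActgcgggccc
In Pdia3 the site differed from the element by G19A, with positions counted from 1 at the first letter of the element. The same search added a site in Hsp90b1 that differs by C18G, at 172 bases on the opposite strand. The promoters of P4hb, Dnajb9 and Ppib held the letters CCACG without the rest, which 32.8% of all promoters hold on either strand. The sequence TGACGTGG, an unfolded protein response element, was in none of the 9 windows and in 0.676% of all promoters. Only these exact letters were searched for, so sites that differ from them were not counted.

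**Figure D1:**
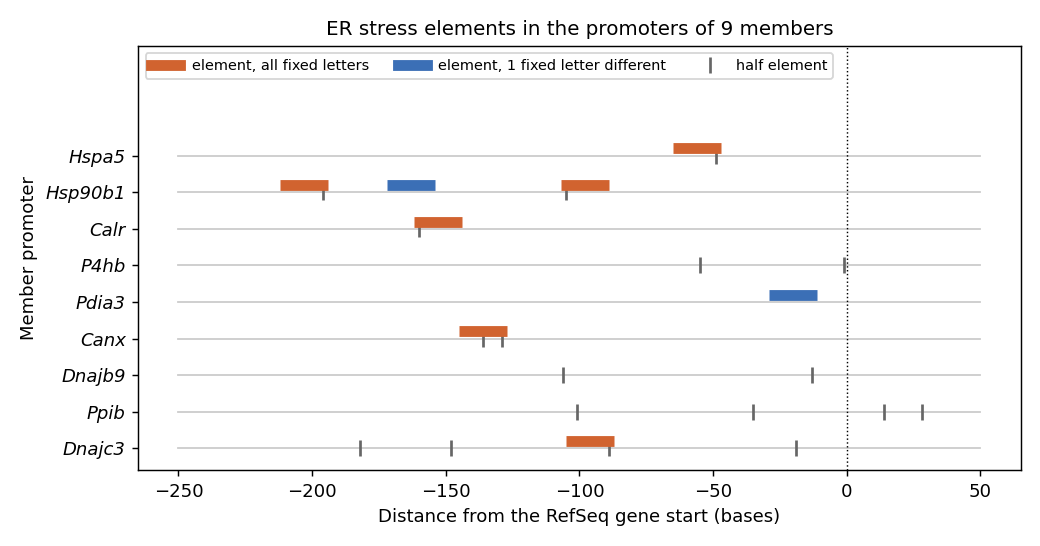
Position of ER stress elements in 9 promoters, in bases from the RefSeq gene start (dotted line), with 1 row for each gene. Orange blocks are elements with all fixed letters, blue blocks have 1 letter different, and grey ticks mark CCACG on either strand. Elements with all letters are in Hspa5, Hsp90b1, Calr, Canx and Dnajc3.

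The libraries held 3792964 to 5131937 counts in WT and 5379044 to 7106203 in KO, after rows with identical counts had been merged, so the KO libraries were deeper. Isoforms have rows of their own, and some rows had identical counts in every library. How footprints that isoforms share were assigned is not stated in the sources used here. The row of Hspa5 had the same counts as 1 other row, that of Canx as 1 other and that of Hyou1 as 2 others, and each such set was kept once. KO replicates 2 and 3 were the closest pair, with a chi-square of 1.32 per degree of freedom, against 4.52 to 10.98 for the other pairs within a genotype. The targeted gene Mettl18, acinar markers, markers of other cell types and the other genes of the ER folding pathway have no identifier paired with a symbol and were not analysed here. A difference in footprints per mRNA and a difference in the amount of mRNA cannot be told apart, because no RNA-seq was used.

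Apart from Dnajb9, all of these genes were among those with the most footprints. Their mean footprint level over the 6 libraries, in CPM (counts scaled to a common library total, here with TMM factors), lay from the 97.0th percentile of the 30588 rows tested, in Dnajc3, to the 99.9th, in Hsp90b1. Dnajb9 lay at the 65.9th percentile. These percentiles are by CPM and take no account of length. For the order of the 10 genes, levels are given as density, in CPM per 100 units of length value, which for these genes is nearly per 100 codons. On this scale the density in WT was 285.1 ± 53.0 for Ppib (SD, n = 3), a prolyl isomerase of the ER lumen, and 174.2 ± 31.8 for Hsp90b1 (GRP94), the Hsp90 of the ER. Then came Hspa5 at 129.6 ± 29.0, Canx at 124.8 ± 24.2, P4hb at 117.0 ± 19.9 and Calr at 113.2 ± 18.0. The ranges of these 4 genes over the libraries overlapped one another, and those of Hspa5 and Canx also overlapped that of Hsp90b1. Within a library the order was steadier: Hsp90b1 lay above Hspa5, Canx above P4hb and P4hb above Calr in 3 of 3 WT libraries, and Hspa5 above Canx in 2 of 3. Pdia3 followed at 67.1 ± 11.3, below Calr in 3 of 3 libraries without overlap. The Hspa5 partners Dnajc3 (P58IPK), at 30.5 ± 5.37, and Hyou1, at 29.9 ± 5.85, could not be ordered. Dnajb9 (ERdj4), a J-domain protein of the ER that is made in small amounts, was the lowest at 9.69 ± 1.74.

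In KO Ppib and Hsp90b1 again had the highest mean densities and Dnajb9 the lowest, and the order of some genes between them differed from that in WT. Ppib had a density of 294.2 ± 10.9 and Hsp90b1 of 198.6 ± 9.28 (SD, n = 3). P4hb, at 170.4 ± 13.4, and Calr, at 166.5 ± 7.90, now had higher means than Hspa5, at 158.0 ± 10.9, and Canx, at 142.8 ± 9.56. Calr lay above Hspa5 in 3 of 3 KO libraries, and Hspa5 lay above Calr in 3 of 3 WT libraries. P4hb lay above Calr in 1 of 3 KO libraries. Pdia3 was at 96.9 ± 6.15, Dnajc3 at 35.5 ± 2.68, Hyou1 at 32.4 ± 3.04 and Dnajb9 at 9.95 ± 0.819. Dnajc3 lay above Hyou1 in 3 of 3 KO libraries and in 1 of 3 WT libraries.

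**Figure D2:**
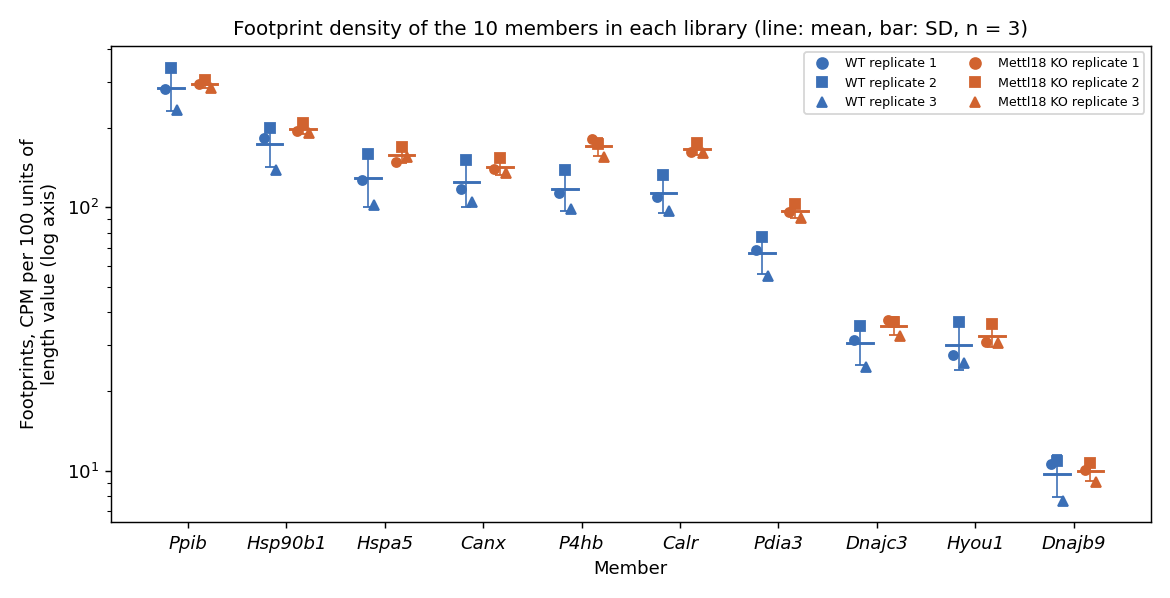
Footprint density of each gene in each library, in CPM per 100 units of length value on a log axis. Blue symbols are the 3 WT libraries and orange symbols the 3 KO libraries, the horizontal line is the mean and the bar the SD. For Calr, P4hb and Pdia3 the KO libraries lie above all WT libraries, and for the other 7 genes the genotypes overlap.

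The comparison of KO with WT addressed whether footprints on the ER folding machinery differ in cells without METTL18. No gene of the 10 passed edgeR's quasi-likelihood test after Benjamini-Hochberg adjustment over all 30588 rows, in either direction. The background of that test was 5.14% of rows higher and 4.3% lower in KO. Among the 1877 rows of at least 100 CPM, 10.1% were called higher. At an unadjusted p under 0.05, 3 of the 10 were higher and 0 lower, against 12.7% and 13.3% of all rows, and 25.5% of rows of at least 100 CPM were higher. The mean was higher in KO for 10 of 10, with log2 fold changes from 0.05 in Ppib to 0.56 in Calr and a median of 0.21, but with library sizes alone as the scaling it was higher for 8, all but Dnajb9 and Ppib. Over all rows tested the median was -0.06, and over rows of at least 100 CPM, a class that holds 9 of the 10 genes, it was 0.16 with 65.4% of rows above 0. The genes' median lay 0.27 above that of all rows and closer to that of the abundant rows. DESeq2's Wald test called 2 of the 10 higher, Calr and P4hb, with 3.91% of all rows, limma-voom called 0, with 5.23%, and edgeR with library sizes alone called Calr, with 4.61%. For these fits the share among rows of at least 100 CPM was not computed.

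Calr, P4hb and Pdia3 had the largest log2 fold changes of the 10, and they were the 3 genes whose KO libraries all lay above all WT libraries. No gene was separated the other way, as 15.3% of all rows were. Of all rows tested 15.5% lay higher in KO without overlap, and of rows of at least 100 CPM 26.5%, so 3 of 10 is a share near the background. Calr (ENSMUST00000003912.6, chr8:84842088-84846931) encodes the soluble lectin chaperone that also stores calcium in the ER. Its level was 447.1, 539.9 and 395.0 CPM in WT replicates 1 to 3 and 662.1, 714.7 and 656.5 CPM in KO replicates 1 to 3. The lowest KO library was 1.22 times the highest WT library. The log2 fold change was 0.56 ± 0.18 (SE), or 1.47-fold with a 95% interval of 1.11 to 1.95 before any adjustment, and the adjusted p of edgeR's test was 0.0854.

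P4hb (ENSMUST00000026122.10, chr11:120560298-120573253), the classical disulfide isomerase and also a subunit of collagen prolyl 4-hydroxylase, was at 569.0, 691.7 and 494.2 CPM in WT and 905.8, 873.2 and 776.5 CPM in KO. All KO values were the higher ones, with a gap of 1.12 times between the nearest libraries. Its log2 fold change was 0.54 ± 0.19 (SE; edgeR adjusted p = 0.109). Pdia3 (ENSMUST00000028683.13, chr2:121413902-121438687) encodes the isomerase that works with calreticulin and calnexin on glycoproteins. It was at 341.4, 383.6 and 272.9 CPM in WT and 477.1, 512.6 and 451.9 CPM in KO, again without overlap. The log2 fold change was 0.53 ± 0.18 (SE; edgeR adjusted p = 0.0967). Whether the test was passed depended on which libraries were included. Without WT replicate 2, the highest WT library for each of the 3 genes, Calr, P4hb and Pdia3 passed the test with log2 fold changes of 0.69, 0.69 and 0.65 and adjusted p of 0.0234, 0.0292 and 0.0346, against 6.98% of all rows called higher in that fit. The share among rows of at least 100 CPM, which include these 3 genes, was not computed for that fit, so no excess is read. Without KO replicate 2, 0 of the 10 genes had an unadjusted p under 0.05 in edgeR's test, against 8.45% of all rows higher, while the log2 fold changes of Calr, P4hb and Pdia3 were 0.52, 0.53 and 0.49. With each of the 6 libraries left out in turn, they ran from 0.46 to 0.69, from 0.44 to 0.69 and from 0.41 to 0.65.

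**Figure D3:**
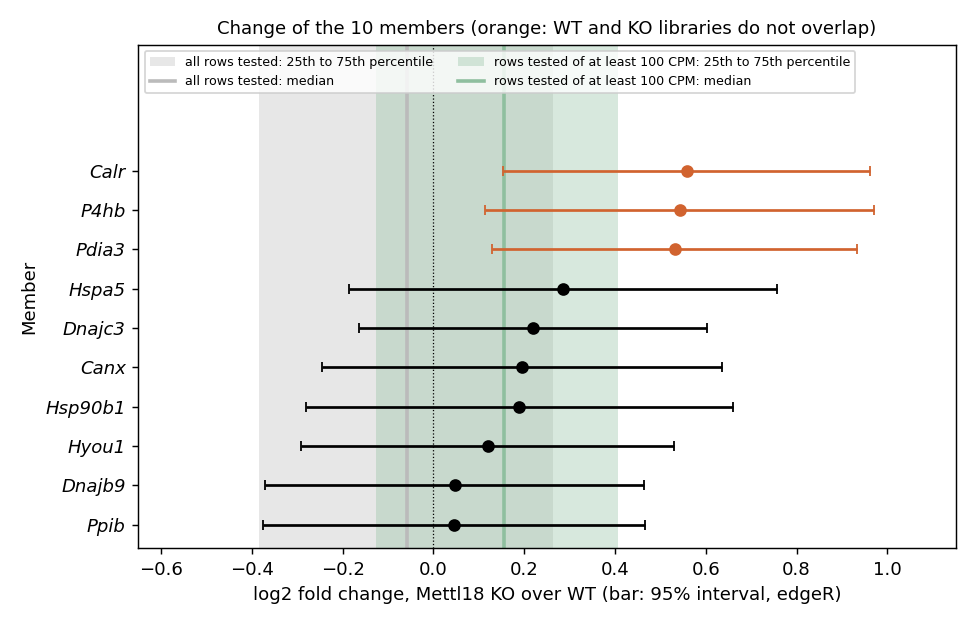
Log2 fold change of each gene, KO over WT, with its 95% interval from edgeR's fit (6 libraries). Grey and green bands run from the 25th to the 75th percentile of all 30588 rows tested and of the 1877 rows of at least 100 CPM, with their medians as lines. Calr, P4hb and Pdia3, in orange, lie above both bands, and the other 7 genes lie within the green band.

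Canx (ENSMUST00000020637.8, chr11:50293957-50325673) encodes the membrane-bound relative of calreticulin. It was at 685.7, 883.2 and 610.2 CPM in WT and 813.6, 893.0 and 785.8 CPM in KO, and WT replicate 2 lay among the KO libraries. Its log2 fold change was 0.19 ± 0.20 (SE; edgeR adjusted p = 0.568), and it was 0.087 without WT replicate 3 and 0.37 without WT replicate 2.

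Hspa5 (ENSMUST00000028222.12, chr2:34772090-34776529) was at 820.0, 1032 and 659.4 CPM in WT and 961.7, 1099 and 1002 CPM in KO. WT replicate 2 was above KO replicates 1 and 3, so the genotypes overlapped. The log2 fold change was 0.29 ± 0.21 (SE; edgeR adjusted p = 0.423) and the 95% interval of the fold change, 0.880 to 1.69, includes no change. Hsp90b1 (ENSMUST00000020238.13, chr10:86690841-86705444), was at 1448, 1593 and 1103 CPM in WT and 1545, 1659 and 1521 CPM in KO. WT replicate 3 was the lowest library, and WT replicate 2 lay between the KO libraries. Its log2 fold change was 0.19 ± 0.21 (SE; edgeR adjusted p = 0.604). Both values moved with single WT libraries: without WT replicate 3 they were 0.14 for Hspa5 and 0.053 for Hsp90b1, and without WT replicate 2 they were 0.47 and 0.31.

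The partners of Hspa5 overlapped between genotypes as well. Dnajc3 (ENSMUST00000022734.8, chr14:118937932-118981702), a J-domain protein first known as an inhibitor of the kinases PKR and PERK, was at 155.2, 175.1 and 122.5 CPM in WT and 184.4, 182.0 and 160.4 CPM in KO. KO replicate 3 fell between WT replicates 1 and 2, and the log2 fold change was 0.22 ± 0.17 (SE; edgeR adjusted p = 0.447). Hyou1 (ENSMUST00000066601.12, chr9:44379490-44392369), a large Hsp70 relative, was at 271.2, 362.0 and 254.1 CPM in WT and 305.2, 355.8 and 302.4 CPM in KO. Its highest value was in WT, and the log2 fold change was 0.12 ± 0.18 (SE; edgeR adjusted p = 0.717). Without WT replicate 3 the log2 fold change was 0.091 for Dnajc3 and 0.026 for Hyou1, and without WT replicate 2 it was 0.35 and 0.30. Without KO replicate 2 that of Hyou1 was 0.044. Dnajb9 (ENSMUST00000015049.4, chr12:44205897-44210068), which holds the stress sensor IRE1 inactive together with Hspa5, rested on 83 to 154 counts per library. It was at 22.5, 23.1 and 16.4 CPM in WT and 21.4, 22.8 and 19.4 CPM in KO, and its log2 fold change was 0.05 ± 0.19 (SE; edgeR adjusted p = 0.897).

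Ppib (ENSMUST00000034947.6, chr9:66060169-66066629) encodes cyclophilin B, which turns prolyl bonds during folding. Its level was 584.7, 702.5 and 483.3 CPM in WT and 609.9, 631.2 and 586.1 CPM in KO, so that the KO libraries lay inside the WT range. The log2 fold change was 0.05 ± 0.19 (SE; edgeR adjusted p = 0.899). The direction of Dnajb9 and Ppib was not settled: it turned with library sizes alone as the scaling, to -0.034 and -0.029, and without WT replicate 3, to -0.099 and -0.076. Without KO replicate 2 that of Dnajb9 was -0.0057. For these 7 genes a fold change of up to 1.38 (Dnajb9) to 1.69 (Hspa5) lies within the 95% interval, so the test does not show that they did not change.

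Much of the spread within a genotype was common to all 10 genes. In WT replicate 2, 10 of 10 lay above their WT mean on the log2 scale, by 0.17 to 0.33, and in WT replicate 3, 10 of 10 lay below it, by -0.20 to -0.32. In KO replicate 2, 10 of 10 lay above the KO mean, with a median of 0.09, and in KO replicate 3, 10 of 10 lay below, with a median of -0.08. WT replicate 1 and KO replicate 1 were mixed, with 5 and 4 of 10 above. The median deviation of the 10 genes was 0.25 in WT replicate 2 and -0.27 in WT replicate 3. Rows of at least 100 CPM moved with them in WT, with medians of 0.22 and -0.22, whereas over all rows tested the medians were 0.03 and -0.05. In KO the abundant rows did not follow the 10 genes in every library: in KO replicates 1, 2 and 3 the medians were -0.02, 0.09 and -0.08 for the 10 genes and -0.13, 0.06 and 0.06 for rows of at least 100 CPM, with opposite signs in KO replicate 3. The part of this library difference in the comparison of genotypes was not tested; without WT replicate 3 the median log2 fold change of the 10 genes was 0.09 in place of 0.21, and without WT replicate 2 it was 0.36.

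**Figure D4:**
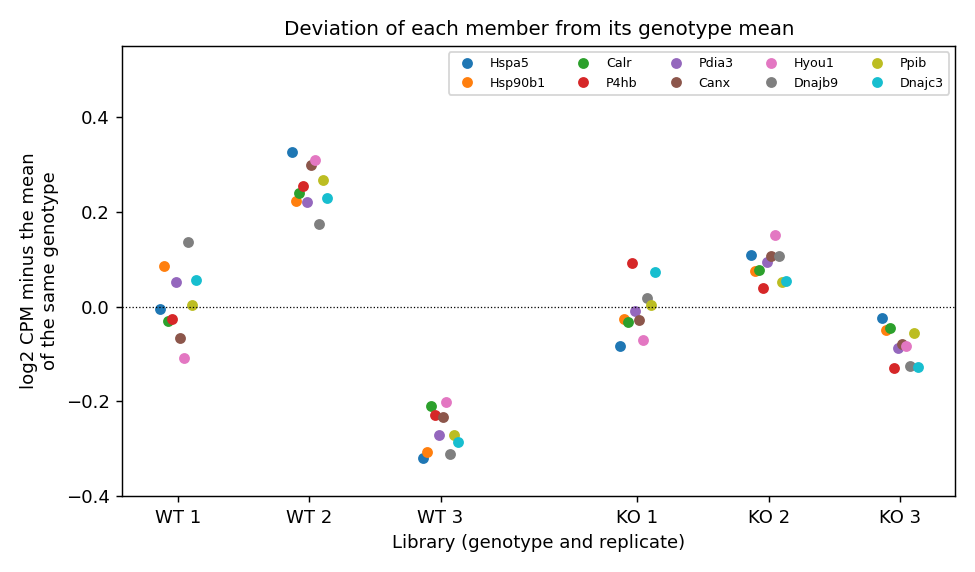
Deviation of each gene's log2 CPM from the mean of its own genotype, for the 3 WT and 3 KO libraries, with 1 colour for each gene. All 10 genes lie above the line in WT replicate 2 and KO replicate 2 and below it in WT replicate 3 and KO replicate 3.

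The proportions of the genes to one another within a library need no scaling between libraries, and in WT they varied less than the levels did. Within WT the SD of a gene's log2 level was 0.23 to 0.32, and that of its log2 ratio to the geometric mean of the 10 genes was 0.01 to 0.11. Within KO these were 0.05 to 0.13 and 0.01 to 0.08, and the ranges overlapped. The division removes any shift that all 10 genes share, so a smaller spread follows in part from it. The 6 ratios of density were compared by exact permutation over the libraries, two-sided, which cannot give a p below 0.1 here. The largest of the 6 differences was that of Calr over Canx, the soluble over the membrane-bound lectin. This ratio was 0.932, 0.874 and 0.926 in WT and 1.16, 1.14 and 1.19 in KO. The groups did not overlap, and the mean went from 0.911 ± 0.0319 to 1.17 ± 0.0253 (SD, n = 3), a 1.28-fold difference (exact permutation p = 0.1, 0.2 after adjustment over the 6 ratios). Leaving out any 1 library left the log2 difference of 0.36 between 0.33 and 0.38.

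Around Hspa5, the ratios of both Hyou1 and Dnajb9 to it had lower values in KO, without passing the test. Hyou1 over Hspa5 was 0.216, 0.229 and 0.251 in WT and 0.207, 0.211 and 0.197 in KO, a log2 difference of -0.18 without overlap (exact permutation p = 0.1, adjusted 0.2), which was -0.12 without WT replicate 3. Dnajb9 over Hspa5 was 0.0832, 0.0678 and 0.0754 in WT and 0.0676, 0.0630 and 0.0586 in KO. Its log2 difference was -0.26 (exact permutation p = 0.1, adjusted 0.2), with WT replicate 2 and KO replicate 1 nearly touching, and ran from -0.33 to -0.18 with libraries left out in turn. Hsp90b1 over Hspa5 went from 1.35 ± 0.0910 to 1.26 ± 0.0432 and Dnajc3 over Hspa5 from 0.237 ± 0.0136 to 0.225 ± 0.0221 (SD, n = 3), both with overlap (exact permutation p = 0.2 and 0.5, adjusted 0.3 and 0.6). Their log2 differences, -0.10 and -0.077, ran from -0.15 to -0.057 and from -0.16 to -0.025 with libraries left out in turn. The smallest difference was that of the disulfide isomerases. Pdia3 over P4hb had a mean of 0.574 ± 0.0272 among WT libraries and of 0.570 ± 0.0337 among KO libraries (SD, n = 3), a log2 difference of -0.01 (exact permutation p = 1, adjusted 1) whose sign changed when single libraries were left out. None of the 6 ratios could pass the threshold in this design.

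Each gene was then set against the geometric mean of all 10 in the same library, a comparison added after the data were seen and given without a test. These ratios use counts, not densities, so only their difference between genotypes is read, in which length cancels. Calr, P4hb and Pdia3 stood higher in every KO library than in any WT library, and Ppib, Dnajb9 and Hsp90b1 lower. Among all rows tested against the same mean, 6.77% were separated upwards and 29.9% downwards, against 3 of the 10 genes each way. Downwards, 3 of 10 is a share near the background. The 10 genes form that mean, and their median log2 fold change was 0.21 against -0.06 for all rows, which tilts the background downwards. The share among rows of at least 100 CPM was not computed, so 3 of 10 upwards is not read as an excess. The log2 difference was 0.28 for Calr, 0.27 for P4hb and 0.26 for Pdia3. Pdia3 was at 0.942, 0.893 and 0.911 times the geometric mean in WT and at 1.092, 1.099 and 1.089 times in KO. Ppib showed the opposite with as little spread: it was at 1.61, 1.64 and 1.61 times in WT and 1.40, 1.35 and 1.41 times in KO, a log2 difference of -0.22. Dnajb9 differed by -0.23 and Hsp90b1 by -0.08, whose groups nearly touched, with WT replicate 3 at 3.68 times the geometric mean and KO replicate 3 at 3.67 times. Hyou1, at -0.15, Canx, at -0.08, Dnajc3, at -0.06, and Hspa5, at 0.02, overlapped between genotypes. These values add up to 0 by construction, so they describe each gene relative to the 10 together and not which of them stayed constant. Whether the 10 genes changed unequally was not tested with these values. Without each library in turn, the difference stayed between 0.22 and 0.31 for the 3 higher genes and between -0.27 and -0.17 for Ppib and Dnajb9. For Hsp90b1 it ran from -0.10 to -0.043, the latter without WT replicate 1.

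**Figure D5:**
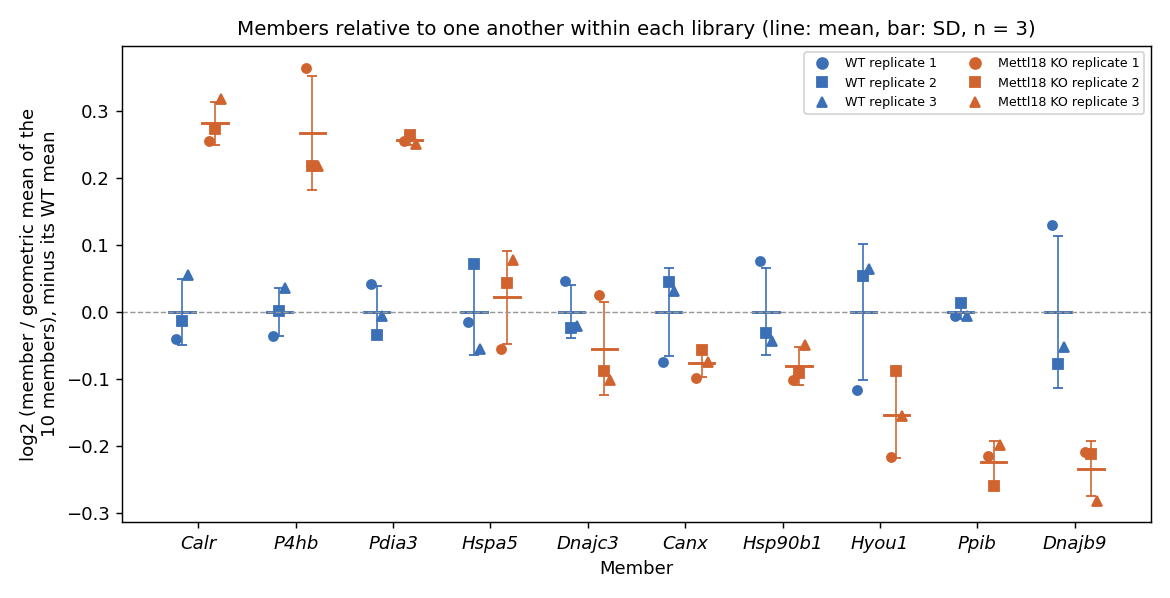
Log2 of each gene's count over the geometric mean of the 10 genes in the same library, with the gene's WT mean set to 0. Symbols are libraries (blue WT, orange KO), lines are means and bars the SD (n = 3). Calr, P4hb and Pdia3 lie 0.26 to 0.28 higher in KO, and Ppib and Dnajb9 lie -0.22 and -0.23 from their WT means.

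Set beside the promoter element, the 5 genes with all of its letters had log2 fold changes from 0.19 to 0.56, with a median of 0.22, and the 4 without it from 0.05 to 0.54, with a median of 0.29. Of the 3 genes with the largest log2 fold changes, Calr had the element, Pdia3 the form that differs by G19A, and P4hb the letters CCACG alone. This is a description of 9 genes with no test, and no match says only that these letters are not in the window.

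Together the 10 genes took 0.560%, 0.606% and 0.472% of counts in WT replicates 1 to 3. In KO replicates 1 to 3 they took 0.651%, 0.659% and 0.589%. The total here is that left after rows with identical counts had been merged. WT replicate 2 lay above KO replicate 3. Wilson 95% intervals of these shares, which cover counting error only, were at most 0.0156 percentage points wide. The mean share was 0.546% ± 0.0679 for WT and 0.633% ± 0.0381 for KO (SD, n = 3), a difference of 0.0872 percentage points that became 0.0502 without WT replicate 3. Rows of at least 100 CPM as a class also leaned higher in KO, with a median log2 fold change of 0.16 and 65.4% above 0. The total may include footprints counted in several isoform rows, and these shares may then differ from shares of distinct footprints.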

How the data were processed

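The authors deposited raw counts of ribosome footprints per Ensembl transcript, 1 file per library (3 WT, 3 KO). The submitters' processing notes name STAR 2.7.0a, UMI-tools 1.1.2, cutadapt 3.7, CASAVA 1.8 and mm10 without saying what each did; which program counted, and with what strand setting, is not given in the sources used here. The unit of the deposited length value is not stated. Rows whose counts were the same in every library were merged. The test was edgeR 4.0.16 (R 4.3.3) glmQLFTest on the whole table with filterByExpr, TMM scaling and genotype as the only term, called at an adjusted p under 0.05. All 10 genes passed the filter. SE is the log2 fold change over the root of F. The code was tested on simulated data. DESeq2 1.42.0, limma 3.58.1 (voom), other scalings and filters, a replicate block, leaving out libraries, thinning and removal of a length trend were alternatives. All 10 genes are named, whatever their change. The genes and lists were chosen with earlier results of these data known. Planned protein features, pathway lists and cell type markers were not analysed here, for lack of protein sequences and paired symbols.

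Same-numbered libraries did not pair: their deviations from the genotype means correlated at -0.04, 0.40 and -0.38 for numbers 1, 2 and 3 across 30588 rows. Libraries of different number correlated between genotypes from -0.58 (WT replicate 2 with KO replicate 1) to 0.62 (WT replicate 3 with KO replicate 1). Variation was thus shared across genotypes without following the numbers, and its source was not tested. Each gene except Dnajb9 had at least 630 counts per library.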

Additional observations from a re-analysis of the deposited data

How the results depend on the processing

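With 0 of 10 genes called in edgeR's main test, 1 was called with library sizes alone (Calr, adjusted p = 0.0425; 4.61% of all rows called higher), 2 by DESeq2's Wald test (3.91%) and 0 to 3 when single libraries were dropped, and none fell in any alternative. Shares among rows of at least 100 CPM were not computed for these alternatives. Over all rows, 1571 rose and 1314 fell in the main test, 928 and 758 under glmTreat at 1.2-fold, 436 and 356 with KO replicates 2 and 3 summed, and 368 to 2223 against 302 to 1718 when single libraries were dropped. With the replicate block 0 of the 10 genes were called, and 1168 rows rose and 944 fell; it changed no call on the 10 genes. The direction turned for Dnajb9 and Ppib with library sizes alone (-0.034 and -0.029) and with libraries left out (-0.0993 to 0.141 and -0.0763 to 0.197). It also turned with libraries left out for Pdia3 over P4hb (-0.0383 to 0.0400) and for Hspa5 relative to the 10 genes (-0.0064 to 0.0602). The causes were not tested. The other 8 genes stayed above 0 in all 19 alternatives, but without WT replicate 3 the log2 fold change was 0.14 for Hspa5, 0.053 for Hsp90b1, 0.087 for Canx, 0.026 for Hyou1 and 0.091 for Dnajc3. With KO replicates 2 and 3 summed the adjusted p of Calr, P4hb and Pdia3 was 0.272, 0.279 and 0.277, at log2 fold changes of 0.56, 0.57 and 0.54. Counting error limits Dnajb9 most, with 83 to 154 counts per library.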
